A study of Mus musculus with 6 samples.

Results

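The L1 family, the NCAM pair and the contactins are neural cell adhesion molecules of the immunoglobulin superfamily, and 10 of their genes were followed here: L1cam, Chl1, Nrcam and Nfasc of the L1 family, Ncam1 and Ncam2, and the contactins Cntn1, Cntn2, Cntn3 and Cntn4. They were chosen by name. Each is represented by the probe row that names it alone, and had a row of its own, so that 10 of the 22180 genes measured by such rows, on a table of 41345 rows, are described. For Ncam1 a further row, shared with a predicted gene, was not used.

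The study asked whether alcohol in the newborn period leaves differences in gene expression later. The label gives whole hippocampus as the tissue, and its total RNA was hybridized to 6 Affymetrix arrays that cover whole transcripts: 3 arrays of male C57BL/6J mice given ethanol and 3 arrays of male C57BL/6J mice given saline. Ethanol was injected under the skin at 2.5 g/kg in 0.15 M NaCl, 2 times in a day and 2 hours apart, on postnatal days 4 and 7, and the controls received saline on the same days. The RNA of 3 mice was pooled for each array, and the groups were formed by dividing littermates. The labels give the age at tissue collection both as 21 days and as postnatal day 70.

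These proteins sit in the membrane of neurons and glia and bind each other, themselves or matrix proteins through immunoglobulin and fibronectin repeats. The L1 family spans the membrane and binds ankyrin, and through it the spectrin skeleton, whereas the contactins are held by a lipid anchor and signal through partners in the same membrane. The family guides growing axons, bundles them, and later holds together axon initial segments, nodes of Ranvier and the contact of axon and myelin. L1-mediated adhesion is known as a target of ethanol, which blocks it in cultured cells.

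The start regions of 3 of these genes are given as sequence, because L1cam and Chl1 were the members whose groups did not overlap and Cntn3 was the member with a lower mean in ethanol. Each shows the 250 bases before an annotated start site, 5′ to 3′ on the strand of the gene, from RefSeq on build GRCm38.p6, which held 9 of the 10 members with 14 start sites. Capitals mark a GC box (GGGCGG, on either strand), a TATA box (TATAAA, on either strand) or an E-box (CANNTG).
L1cam, chrX:73880835-73881084, minus strand, the more upstream of 2 start sites: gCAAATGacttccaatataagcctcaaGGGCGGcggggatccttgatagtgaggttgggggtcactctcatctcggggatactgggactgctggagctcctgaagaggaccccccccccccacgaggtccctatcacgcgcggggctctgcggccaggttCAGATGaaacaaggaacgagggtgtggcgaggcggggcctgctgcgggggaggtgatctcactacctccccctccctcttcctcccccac
Chl1, chr6:103510626-103510875, plus strand: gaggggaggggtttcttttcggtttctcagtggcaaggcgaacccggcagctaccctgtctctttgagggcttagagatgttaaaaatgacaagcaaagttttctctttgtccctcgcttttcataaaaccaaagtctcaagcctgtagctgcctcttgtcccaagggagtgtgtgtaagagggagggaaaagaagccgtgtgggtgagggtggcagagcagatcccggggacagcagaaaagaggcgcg
Cntn3, chr6:102464668-102464917, minus strand: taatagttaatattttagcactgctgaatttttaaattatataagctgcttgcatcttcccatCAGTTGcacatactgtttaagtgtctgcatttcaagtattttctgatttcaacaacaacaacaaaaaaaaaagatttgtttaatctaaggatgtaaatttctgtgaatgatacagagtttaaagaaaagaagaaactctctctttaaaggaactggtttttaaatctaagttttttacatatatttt

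The 3 windows differ in composition. The Cntn3 window lies inside the span that the gene table gives for Cntn3, so it is an internal start site and not the outermost end of the gene. The Chl1 window, from 103510626, likewise lies inside the Chl1 span, which begins at 103510584, so its start site is not the outermost end either. The printed L1cam window is 63.2% G and C with 12 CpG and that of its other start site 69.6% with 20 CpG, the Chl1 window 52.4% with 8 CpG, and the Cntn3 window 26.4% with 0 CpG, beside medians of 52.4% and 6 CpG over 32851 promoters. The printed L1cam window holds 1 GC box and 2 E-boxes, the Chl1 window none of the 3 motifs, and the Cntn3 window 1 E-box. Among all promoters of the same length 32.7% hold a GC box, 66.2% an E-box and 12.4% a TATA box. Matches are letters in a window, and no binding was measured.

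The arrays did not separate cleanly by group. Across rows, each saline array had a higher mean correlation to the ethanol arrays than to the other saline arrays. The values were 0.991 against 0.987 for saline array 1, 0.9883 against 0.9878 for saline array 2 and 0.9892 against 0.9878 for saline array 3. On the first principal component saline array 1 stood with the ethanol arrays. Its score was -19.9, beside -19.1 to -1.59 for the ethanol arrays and 23.7 and 32.6 for the other saline arrays. Array medians lay between 6.55 and 6.66 on the log2 scale. With 3 pools a group, the precision is set by how few arrays there are, and a p-value here speaks of how pools vary, not of single mice. In the RNA of a tissue, fewer cells of a type and less RNA per cell cannot be told apart. The tissue label was read against markers: cerebellar granule cell genes averaged from 8.12 (Neurod1) to 12.17 (Gabra6) over 7 genes, CA1 pyramidal cell genes from 6.81 (Mpped1) to 8.72 (Wfs1) over 4, and dentate granule cell genes from 5.62 (Tdo2) to 8.18 (Prox1) over 5. Of 5 listed Purkinje cell genes 2 were measured, and these averaged 12.28 (Calb1) and 12.44 (Car8). CA3 pyramidal cell genes averaged from 6.16 (Cpne4) to 7.95 (Grik4) over 5, and telencephalic neuron genes from 5.74 (Tbr1) to 7.27 (Bcl11b) over 4. Probes differ in brightness and no detection calls were used, so these levels do not rank the cells. Still, genes listed for cerebellar granule and Purkinje cells gave bright signals in tissue labelled hippocampus. How far each listed gene, Calb1 and Neurod1 among them, is confined to its cell type was not examined. Several of the adhesion genes, Cntn2 among them, are also known from cerebellar neurons.

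None of the 10 genes passed the test, and the differences were small. In limma, 0 of the 10 had an adjusted p under 0.05, as for 0% of all 41345 rows, with adjusted p from 0.857 to 0.967 for the 10. At an unadjusted p under 0.05 there were also 0, in either direction, where 1.2% of all genes were higher in ethanol and 1.98% lower. The mean was higher in ethanol for 9 of the 10 genes and lower for 1, with a median difference of 0.08 (log2, ethanol minus saline), against 57.2% of all genes higher and a median of 0.02. The 95% intervals of the 10 together reached from 0.783-fold to 1.36-fold, so that larger changes than these lie outside the intervals of this fit.

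**Figure D1:**
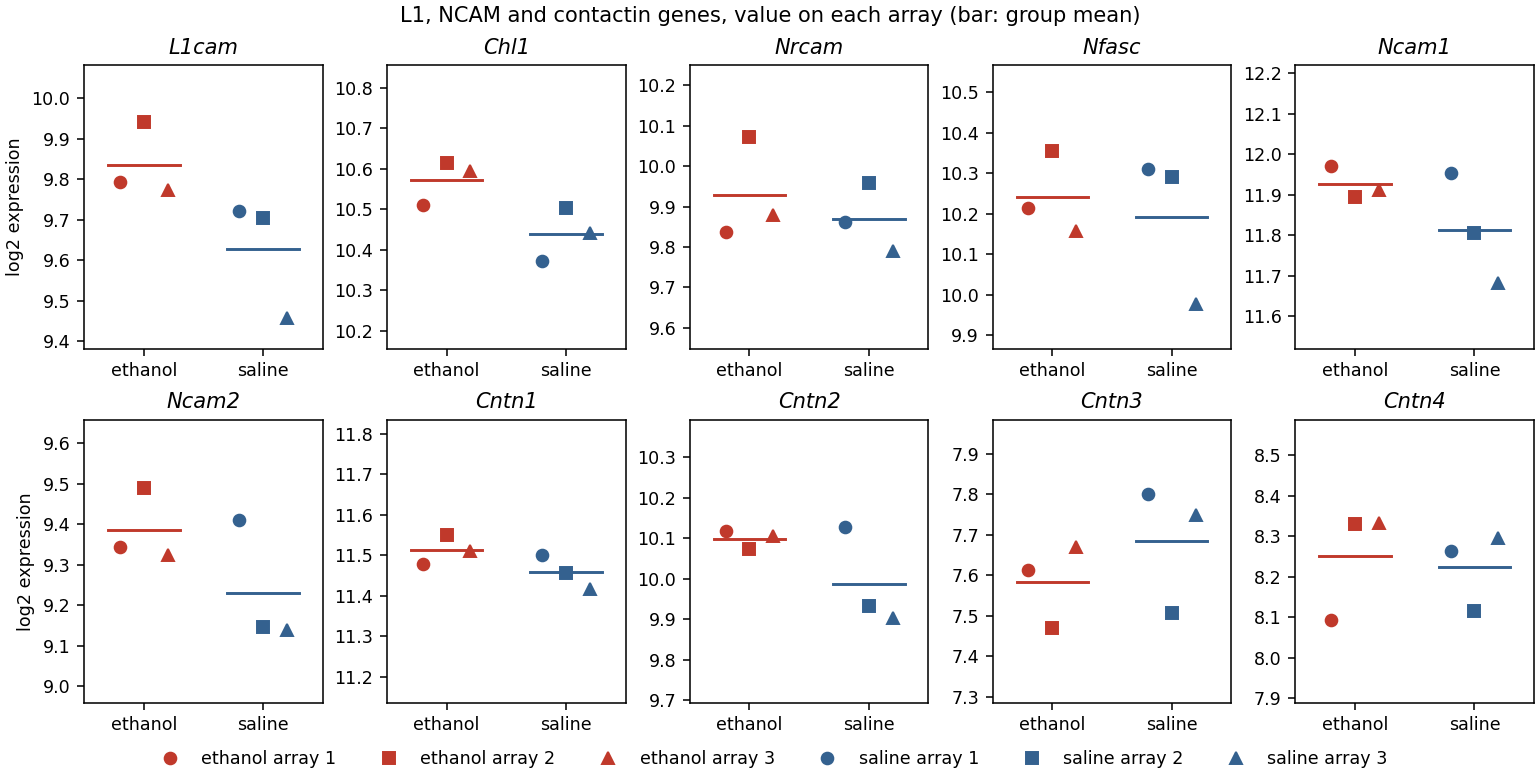
Log2 expression of the 10 adhesion genes on each array, with ethanol arrays to the left of saline arrays in each panel, symbols for arrays 1 to 3 and a bar at the group mean; every panel spans the same number of log2 units. The groups are apart for L1cam and Chl1 and overlap for the other 8 genes, and saline array 3 is the lowest array for 7 genes.

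Within the L1 family, L1cam had the largest difference of the 10 genes. L1cam, the founding member, which guides and bundles axons and whose loss causes hydrocephalus in humans, stood at 9.79, 9.94 and 9.77 on the ethanol arrays, against 9.72, 9.70 and 9.46 on the saline arrays. Every ethanol array was above every saline array, but the gap was narrow: the lowest ethanol array was at 9.77 and the highest saline array at 9.72. The means were 9.84 ± 0.09 in ethanol and 9.63 ± 0.15 in saline (SD, n = 3), a difference of 0.21 ± 0.10 (SE) or 1.16-fold, with a 95% interval of 0.979 to 1.36 and an adjusted p of 0.857 in limma. Saline array 3 was the low point, and leaving it out gave a difference of 0.12.

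Chl1, the close homologue of L1, which supports neurite growth and the placing of cortical neurons in mice, was the other member whose groups did not overlap. It stood at 10.51, 10.61 and 10.59 on the ethanol arrays, against 10.37, 10.50 and 10.44 on the saline arrays. Ethanol array 1 and saline array 2 all but touched. The difference was 0.13 ± 0.08 (SE, 3 arrays against 3), or 1.10-fold, with an adjusted p of 0.857 in limma. Groups that do not overlap with ethanol higher were thus found for 2 of the 10 genes and for 5.74% of all genes, and with ethanol lower for 0 of the 10 and for 4.72% of all genes. An exact permutation test of 3 arrays against 3 cannot go below 0.1, the value that both L1cam and Chl1 had.

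Nrcam and Nfasc, the L1 family members of nodes of Ranvier and axon initial segments, overlapped between the groups. Nrcam stood at 9.84, 10.07 and 9.88 on the ethanol arrays, against 9.86, 9.96 and 9.79 on the saline arrays, a difference of 0.06 ± 0.09 (SE). Its highest value was on ethanol array 2, and ethanol arrays 1 and 3 lay inside the range of saline. Nfasc, whose neuronal form anchors at the initial segment and whose glial form holds the myelin loops beside the node, stood at 10.21, 10.36 and 10.16 on the ethanol arrays, against 10.31, 10.29 and 9.98 on the saline arrays, a difference of 0.05 ± 0.11 (SE). Saline arrays 1 and 2 were above ethanol arrays 1 and 3, and saline array 3 was the low point, as for L1cam.

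The NCAM pair gave differences of 0.11 and 0.16. Ncam1, which binds itself across cells and carries most of the polysialic acid of the brain, stood at 11.97, 11.90 and 11.91 on the ethanol arrays, against 11.95, 11.81 and 11.68 on the saline arrays. Saline array 1 lay inside the range of ethanol and the other saline arrays lay below it. The difference was 0.11 ± 0.09 (SE), with an adjusted p of 0.870 in limma; it was 0.05 without saline array 3 and 0.18 without saline array 1. Ncam2, known from olfactory axons and synapses, stood at 9.35, 9.49 and 9.33 on the ethanol arrays, against 9.41, 9.15 and 9.14 on the saline arrays. Here too saline array 1 was within the range of ethanol and the other saline arrays below it. The difference was 0.16 ± 0.10 (SE), with an adjusted p of 0.859 in limma. Without saline array 1 it was 0.24, with an unadjusted p of 0.0346 and an adjusted p of 0.509 in limma, the only unadjusted p under 0.05 that a member reached under any alternative.

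The contactins did not share a direction. Cntn1, which pairs with Caspr (Cntnap1) on axons beside the node, stood at 11.48, 11.55 and 11.51 on the ethanol arrays, against 11.50, 11.45 and 11.42 on the saline arrays, the smallest range of the 10 genes at 0.133 over all arrays. Its difference was 0.06 ± 0.07 (SE), and 0.035 without saline array 3. Cntn2, also called TAG-1, which pairs with Caspr2 (Cntnap2) and is found on growing axons, stood at 10.12, 10.07 and 10.10 on the ethanol arrays, against 10.13, 9.93 and 9.90 on the saline arrays. Saline array 1 was the highest of all and the other saline arrays were below every ethanol array, and the difference was 0.11 ± 0.09 (SE), or 0.07 without saline array 3 and 0.18 without saline array 1. The ethanol arrays of Cntn2 were close together, with an SD of 0.02, against 0.12 in saline.

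Cntn3, first described as BIG-1 in the rat, was the member with a lower mean in ethanol. It stood at 7.61, 7.47 and 7.67 on the ethanol arrays, against 7.80, 7.51 and 7.75 on the saline arrays, a difference of -0.10 ± 0.11 (SE) with an adjusted p of 0.890 in limma. Leaving out 1 array gave -0.04 without saline array 1 or without ethanol array 2, and -0.19 without saline array 2. Saline array 2 was below 2 of the ethanol arrays, so the groups overlapped. Cntn4, which takes part in the targeting of olfactory axons in mice and binds the amyloid precursor protein, stood at 8.09, 8.33 and 8.33 on the ethanol arrays, against 8.26, 8.12 and 8.30 on the saline arrays. Its lowest and its highest value were both on ethanol arrays, and the difference was 0.03 ± 0.10 (SE). On build GRCm38 the genes of Chl1, Cntn3 and Cntn4 all lie on chromosome 6, Cntn3 from 102163304 to 102564614, Chl1 from 103510584 to 103733038 and Cntn4 from 105677632 to 106700141, and their differences of -0.10, 0.13 and 0.03 did not share a sign.

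The differences of most members were near those of genes of like brightness. When all genes were ordered by mean level and cut into 10 classes of equal size, 7 of the members fell in the brightest class, whose 2218 genes had a median difference of 0.08, the same to 2 decimals as the median of the 10 members. Ncam2 was in the next class, with a class median of 0.07, Cntn4 in the class with a median of 0.05 and Cntn3 in the class with a median of 0.03. L1cam exceeded the median of its class by the widest margin, at 0.21 against 0.08, and Cntn3 lay furthest below its own, at -0.10 against 0.03. These class medians are descriptions, and no test was made against them.

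**Figure D2:**
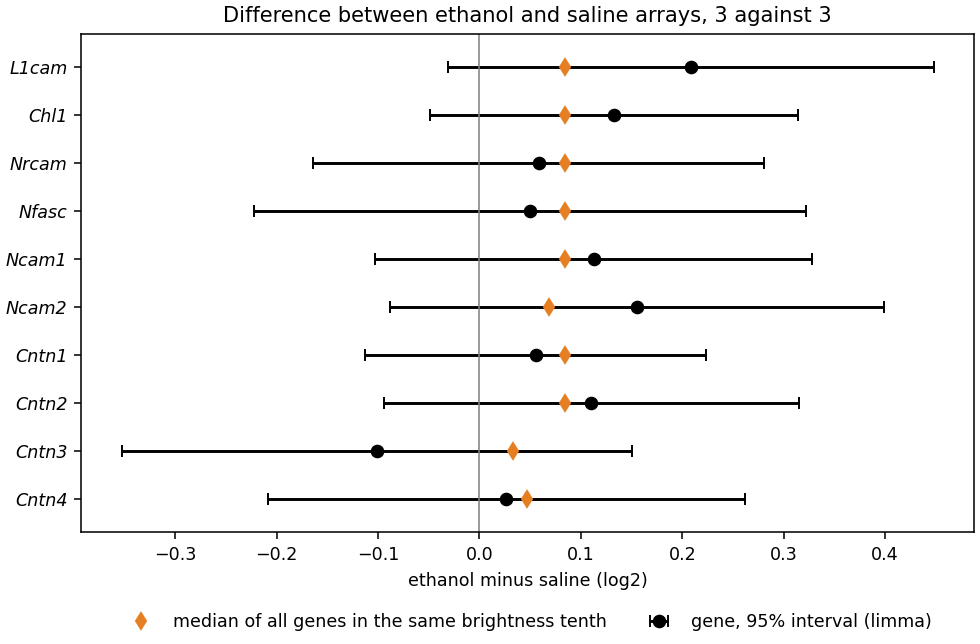
Difference of ethanol minus saline (log2) for each adhesion gene, as a point with its 95% interval from limma, and as a diamond the median difference of all genes in the same of 10 brightness classes. All 10 intervals include 0 and the median of the class, and L1cam, at 0.21, lies furthest to the right.

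The count of 9 genes with a higher mean in ethanol rested partly on 1 array: without ethanol array 2 it was 6, with 4 lower. The median difference of the 10 genes was 0.07 without ethanol array 2 and, at its lowest, 0.05 without saline array 3, against 0.08 on all arrays. Ethanol array 2 held the highest value of 6 of the 10 genes, and saline array 3 the lowest value of 7. The median deviation of the 10 genes from their own means was 0.00, 0.10 and 0.04 on ethanol arrays 1 to 3, against 0.05, -0.05 and -0.12 on saline arrays 1 to 3. Over the brightest class of all genes the deviations were 0.03, 0.09 and 0.00 on the ethanol arrays, against 0.01, -0.11 and -0.03 on the saline arrays. By these medians the 10 genes shared the high value of ethanol array 2 with bright genes in general. Their lowest array was saline array 3, whereas that of the brightest class was saline array 2. The families differed in this. Saline arrays 2 and 3 stood at 0.03 and -0.17 for the L1 family, against -0.12 and -0.01 for the contactins. The contactins were highest on saline array 1, at 0.06, with ethanol array 2 at 0.05. With the scaling changed the direction of several members changed too: 6 of the 10 were higher in ethanol after quantile normalization and 5 after cyclic loess. The median of the members was then 0.02 and 0.01, and 0 of the 10 kept groups that do not overlap under either. L1cam differed by 0.14 and 0.13 under these scalings, and Chl1 by 0.07 and 0.05. The median of all genes was 0.02 and 0.01 under these scalings, as it was 0.02 without them.

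**Figure D3:**
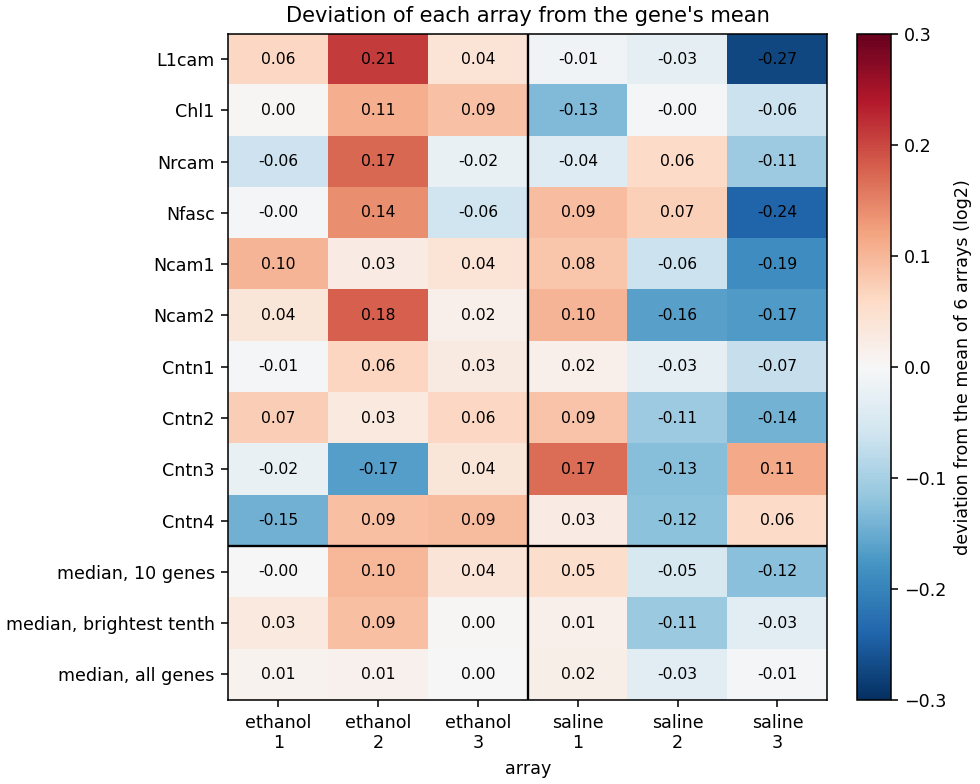
Deviation of each array from the mean of the 6 arrays (log2, colour and number), for each adhesion gene and, under the line, for the median of the 10 genes, of the brightest of 10 classes of genes and of all genes; ethanol arrays are left of the vertical line. Ethanol array 2 is high for L1cam, Nrcam, Nfasc and Ncam2, and saline array 3 is low for L1cam, Nfasc, Ncam1 and Ncam2.

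The partners of these molecules gave a like picture. Of 78 listed genes of partners and relatives, 71 were measured, and the others were not analysed here. The mean was higher in ethanol for 52 (73.2%) and lower for 19, with a median difference of 0.04, against 57.2% of all genes higher and a median of 0.02. No comparison with genes of like brightness was made for the partners. Among the marker lists below, class medians are set beside the cerebellar granule and CA1 markers only. No partner had an adjusted p under 0.05 in limma, and 1 of the 71, Gldn, had an unadjusted p under 0.05 with ethanol lower, beside the 1.98% of all genes given above, so the count is no result about the partners. Gldn encodes gliomedin, a matrix protein of Schwann cells that gathers Nrcam and Nfasc at nodes of peripheral nerve. It stood at 6.19, 6.31 and 6.39 on the ethanol arrays, against 6.60, 6.53 and 6.72 on the saline arrays. The groups did not overlap, and the difference was -0.32 ± 0.09 (SE), with an unadjusted p of 0.00960 and an adjusted p of 0.857 in limma.

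Among the other contactins and the Caspr proteins, 7 of 9 genes were higher in ethanol, with a median difference of 0.04. Cntnap1, the axonal partner of Cntn1, had the smallest p of that list. It stood at 10.21, 10.03 and 10.04 on the ethanol arrays, against 10.02, 9.86 and 9.84 on the saline arrays. The groups did not overlap, by a margin of ethanol array 2 at 10.03 over saline array 1 at 10.02, and the difference was 0.18 ± 0.09 (SE), with an adjusted p of 0.857 in limma. Cntnap2, the partner of Cntn2, differed by 0.05 ± 0.08 (SE), and Cntn6, the contactin NB-3, by 0.15 ± 0.11 (SE), both with overlapping groups; these genes were chosen after their values were seen.

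Of the genes that link adhesion molecules to the cell skeleton, a list of ankyrins, spectrins and other adaptors, 9 of 11 measured genes were higher in ethanol, with a median of 0.04, and all 11 lay between -0.09 and 0.08. Sptbn4, the spectrin of initial segments and nodes, had the smallest p in the list and differed by -0.09 ± 0.08 (SE). The ankyrins, which bind the tail of the L1 family, differed by 0.06 ± 0.07 (SE) for Ank1, 0.06 ± 0.08 for Ank2 and 0.07 ± 0.08 for Ank3; they were chosen after their values were seen, and the groups were apart for Ank1 only among the 11. Saline array 3 was the lowest array for each of the ankyrins, as it was for L1cam and Nfasc.

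Ligands and matrix partners had 7 of 11 genes higher in ethanol and a median of 0.03. Beside Gldn, the groups were apart for Ptprz1, a receptor phosphatase that binds contactin, at 10.13, 10.12 and 10.10 on the ethanol arrays, against 10.03, 9.93 and 9.96 on the saline arrays, a difference of 0.14 ± 0.07 (SE); it was named after its values were seen. Ptprz1 is also strongly expressed by astrocytes and their precursors, and the 7 astrocyte markers were all higher in ethanol, with a median of 0.12. Of these Aqp4, the astrocyte water channel, had the smallest p. It differed by 0.26 ± 0.07 (SE) with groups that were apart, an unadjusted p of 0.00869 and an adjusted p of 0.857 in limma. Of all genes, 1.2% had an unadjusted p under 0.05 with ethanol higher, and 5.74% were apart with ethanol higher. Of the other markers, only Fibcd1 (CA1) and Iyd (CA3) also had an unadjusted p under 0.05, both lower in ethanol and apart. They differed by -0.22 ± 0.08 and -0.19 ± 0.08 (SE), with an unadjusted p of 0.0301 and 0.0362 in limma. Of all genes, 1.98% had an unadjusted p under 0.05 with ethanol lower, and 4.72% were apart with ethanol lower. Fibcd1 averaged 7.26 and Iyd 6.28, beside array medians of 6.55 to 6.66. CA1 markers were lower in ethanol for 3 of 4, but CA3 markers were higher for 3 of 5. The summed log2 level of the astrocyte markers was 71.4 to 72.4 on the ethanol arrays, against 70.4 to 71.7 on the saline arrays. Their part in the difference of Ptprz1 was not tested.

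Co-receptors and signalling partners, which include neuropilins, plexins, FGF receptors, integrins and the kinases Src and Fyn, had 15 of 21 genes higher and a median of 0.04. None had groups that did not overlap. Itga5, an integrin subunit, had the smallest p and differed by -0.21 ± 0.11 (SE), with saline array 1 at 7.43 as its highest value. Genes of shedding and of polysialic acid synthesis had 4 of 5 higher, with a median of 0.11. St8sia4 and St8sia2, the sialyltransferases that build polysialic acid on Ncam1, differed by 0.18 ± 0.10 and -0.14 ± 0.09 (SE), with overlapping groups for both. Bace1, a protease that cleaves Chl1, differed by 0.11 ± 0.07 (SE), with groups that were apart, and Adam10 and Adam17, which shed L1, by 0.11 ± 0.08 and 0.19 ± 0.10 (SE), with groups that overlapped. Of these, only St8sia4 was named by the smallest p of its list. Adjusted p in limma was 0.857 to 0.864 for these genes and Itga5.

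Other neural adhesion genes of the immunoglobulin superfamily, such as the IgLON and Cadm families, had 10 of 14 higher and a median of 0.08. Cadm3, an adhesion molecule of axons and synapses, had the smallest p, at 12.01, 12.04 and 11.97 on the ethanol arrays, against 11.90, 11.89 and 11.83 on the saline arrays, with a difference of 0.13 ± 0.07 (SE) and an adjusted p of 0.857 in limma. Over all 71 partners, groups that do not overlap were found for 5 genes with ethanol higher and 1 with ethanol lower, beside the shares of 5.74% and 4.72% of all genes.

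Marker genes of cells that carry these molecules also differed a little between the arrays. Of all genes, 57.2% were higher in ethanol, with a median of 0.02, and the class median was -0.02 in the dimmest and 0.08 in the brightest class. Cerebellar granule cell markers were higher in ethanol for 6 of 7 genes, with a median of 0.08. Their summed log2 level was 75.6 to 76.1 on the ethanol arrays, against 75.3 to 75.4 on the saline arrays, with no overlap. The brightest class of all genes, with levels from 9.33, also had a median of 0.08. Only Neurod1 of these markers, at 8.12, lay below that class. It was the marker that was lower in ethanol, at -0.02, and its own class had a median of 0.05. The part of brightness in these differences was not tested. How often summed levels of other gene sets do not overlap was not counted. Myelinating oligodendrocyte markers, of cells that hold the glial form of Nfasc, were higher for 6 of 6, with a median of 0.04 and summed levels of 64.9 to 67.1 in ethanol, against 65.1 to 66.6 in saline. Endothelial markers were higher for 5 of 5, with a median of 0.13, above that of the adhesion genes, and summed levels of 37.5 to 38.6 in ethanol, against 37.0 to 38.1 in saline. Of the hippocampal sets, dentate granule cell markers were higher for 3 of 5, with a median of 0.04, and CA3 markers for 3 of 5, also with a median of 0.04. CA1 markers were lower for 3 of 4, with a median of -0.04 and summed levels of 29.4 to 29.6 in ethanol, against 29.6 to 30.1 in saline, ranges that overlapped at the edge. Mpped1 and Pou3f1, at 6.81 and 6.89, were in a brightness class with a median of -0.02, and Fibcd1, at 7.26, in a class with a median of 0.00. Wfs1, at 8.72, was in a class with a median of 0.07. Microglia markers were higher for 2 of 5, with a median of -0.04, and oligodendrocyte precursor markers for 2 of 4, with a median of 0.00. Telencephalic markers were higher for 2 of 4, with a median of -0.01, and Purkinje cell markers for 1 of 2, with a median of 0.04. Immature neuron markers were higher for 4 of 5, with a median of 0.02. No marker was listed at 0. The part of these cells in the differences of the adhesion genes was not tested.

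**Figure D4:**
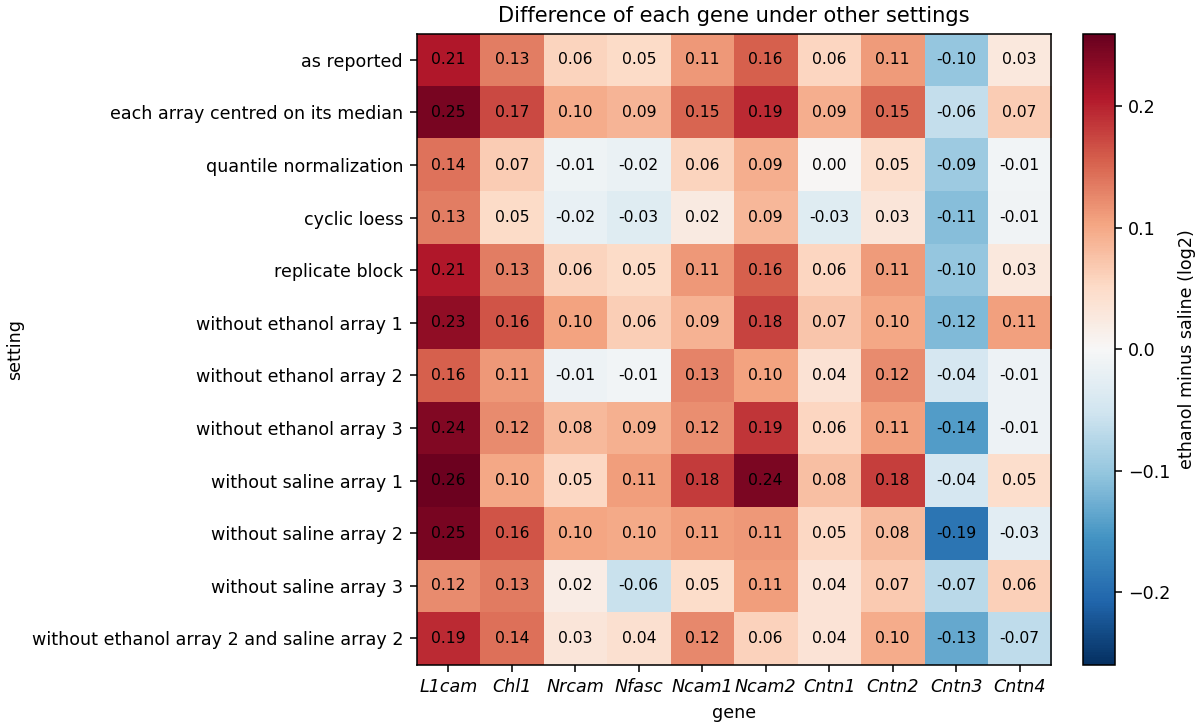
Difference of ethanol minus saline (log2, colour and number) for each adhesion gene as reported and under other scalings, with the replicate number as a block, and without single arrays. L1cam, Chl1, Ncam1, Ncam2 and Cntn2 are positive and Cntn3 negative in every row, whereas Nrcam, Nfasc, Cntn1 and Cntn4 change sign.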

How the data were processed

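The authors deposited summarized log2 values, with a column for each array; that the scale is log2 follows from their range and from quartiles that are alike between arrays. The arrays took biotin-labelled cDNA made from 200 ng of RNA, per the labels' protocols. How background, summarization and normalization were done is not given in the sources used here. Genes were named from the platform annotation, in which 23521 rows name 1 gene, 1814 several and 16010 none here; per gene the row with the highest mean was kept. All 10 members matched a RefSeq gene on GRCm38.

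All rows were fitted with limma 3.58.1 in R 4.3.3 (lmFit, eBayes, no covariate or filter, two-sided, 4 residual and 2.94 prior degrees of freedom), with Benjamini-Hochberg adjustment over all rows at 0.05. The fit was tested on simulated data, with added differences larger than that of any member. That test does not show whether differences of the members' size could be called. Python 3.11.15 read the promoters. The members, the partner and marker lists and the tests were chosen with earlier results of these data known. All members are named, and of the partners those with an unadjusted p under 0.05 and the smallest p of each list, with exceptions marked. Alternatives covered scaling, prior, row filters, array weights, pairing, row choice and leaving out arrays.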

Additional observations from a re-analysis of the deposited data

How the results depend on the processing

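With limma, 0 of the 10 members had an adjusted p under 0.05 under each of 16 other settings and without ethanol array 2 and saline array 2 together, an alternative chosen after the data were seen, as these have the widest and the narrowest spread of values. L1cam, Chl1, Ncam1, Ncam2 and Cntn2 stayed positive and Cntn3 negative in all 17. Cntn1 turned to -0.0318 after cyclic loess. Nrcam turned to -0.0103 with quantile normalization and -0.0196 after cyclic loess, and Nfasc to -0.0168 and -0.0309. Cntn4 turned to -0.0077 with quantile normalization, -0.0094 after cyclic loess and -0.0666 without the pair of arrays chosen later. Leaving out 1 array gave -0.0130 to 0.10 for Nrcam, -0.0584 to 0.11 for Nfasc and -0.0278 to 0.11 for Cntn4. Each of these genes differed by under 0.06 as reported; the cause was not tested. Members with groups that do not overlap numbered 2, but 0 with quantile normalization and 0 after cyclic loess, and 2 to 6 leaving out 1 array, where fewer arrays make gaps more common by construction; the 6 came without saline array 1 and 4 without ethanol array 1. Members with an unadjusted p under 0.05 numbered 0, and 0 to 1 leaving out 1 array. Partners with an unadjusted p under 0.05 numbered 1, but 2 with arrays centred on their medians, 2 with a trended and robust prior, 4 with no moderation, 0 among rows above the median brightness, which Gldn does not reach, and 1 to 3 leaving out 1 array. Median centring raised the median of all genes to 0.06 and that of the members to 0.12.

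Replicate numbers are shared by the groups. Deviations of same-numbered arrays from their group means correlated at 0.10, -0.06 and 0.04 across rows, and those of differently numbered arrays at -0.13 to 0.10. With so few arrays these values cannot show whether the pools were paired by litter. With the replicate block L1cam kept its difference of 0.21 (unadjusted p = 0.0776 and adjusted p = 0.887 in limma), and 0 members were called. Pools of 3 mice on 3 arrays a group set the width of the intervals. Whether the unstated normalization changed the size of differences was not tested.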
